A study of Mus musculus with 26 samples.

Results

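The effect of DZNep, an inhibitor of S-adenosylhomocysteine hydrolase used here as an inhibitor of the H3K27 methyltransferase EZH2, was measured by RNA-seq in the retina of rd10 mice, in 6 of the 26 libraries of the series. All 6 came from rd10 mice, which carry a mutation in Pde6b, the gene of a rod phosphodiesterase subunit, on the strain written in the labels of the first control library as B6.CXB1-Pde6brd10/Jrd10. The 4 control mice received saline by intraperitoneal injection and the 2 treated mice DZNep, from PN9 until the retinas were collected at PN24. The Results of the study give 1.5 mg/kg DZNep each day until PN12 and 1 mg/kg each second day from PN13, whereas its Methods give daily injections for all inhibitors. The number that ends the genotype in the labels rises by 1 from library to library, and all were taken as rd10. Whole retina was used, so each value is a mean over all cell types, and the libraries were made from polyadenylated RNA. The comparison was chosen as the libraries carrying these 2 labels, and it is described over the 16477 genes that passed a filter on low counts, out of 37991 counted.

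Rods of rd10 mice die in the weeks after eye opening. As background, rods make up most of the cells of a mouse retina, beside cones, the bipolar, amacrine, horizontal and ganglion cells of the inner retina and Müller glia. Retinas that lose rods are known to draw in microglia and to activate Müller glia. EZH2 is the catalytic subunit of Polycomb repressive complex 2 (PRC2), which keeps developmental regulators such as the Hox genes silent by methylating histone H3 at lysine 27. DZNep raises S-adenosylhomocysteine, the product of methyl transfer, which slows many methyltransferases, so it is not specific for EZH2.

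Each library held 14115428 to 36354094 counted reads, the deepest and the shallowest being DZNep 1 and DZNep 2. Levels are given as CPM, read counts relative to the library size scaled by edgeR's TMM factors. Markers of retinal cells were present, the rod channel gene Cnga1 at 225 to 764 CPM, the bipolar gene Grm6 at 179 to 318 CPM and the ganglion cell gene Rbpms at 45.9 to 58.1 CPM, whereas Krt12 of the cornea, Ckm of muscle and Cd3e of T cells stayed at or below 0.65 CPM. Control 3 held the Y-linked genes Ddx3y, Eif2s3y, Kdm5d and Uty at 22.4 to 47.2 CPM and Xist at 0.138 CPM, while the other 5 libraries held Xist at 730 to 1081 CPM and none of the Y-linked genes. DZNep 2 held the lens crystallin Cryaa at 36.99 CPM and the melanocyte and pigment epithelium gene Dct at 100 CPM, against at most 0.644 and 38.1 CPM elsewhere. The part of these differences in the results was not tested, and values without DZNep 2 are given where they touch a result.

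At an adjusted p-value under 0.05 and more than a 2-fold change, 168 genes (1.02% of those tested) were higher and 113 (0.686%) lower in DZNep-treated retinas (quasi-likelihood test in edgeR, Benjamini-Hochberg adjustment). These genes are named "called" here. The call of a gene is said to be lost where its adjusted p-value no longer passed 0.05 in another fit. This is also said of genes that passed the adjusted p-value alone, short of the fold threshold. At the adjusted p-value alone 2133 genes (12.9%) rose and 1601 (9.72%) fell, and the median log2 fold change of all genes was 0.00. Scaling by library size without TMM, chosen after seeing the data, moved that median to -0.12 and gave 126 higher and 208 lower genes. The number of genes called depended on the libraries in the fit. With a control left out, 135 to 226 were called higher and 87 to 142 lower. At the adjusted p-value alone 1491 to 2361 rose and 856 to 2176 fell in these fits, the fewest without control 2 and the most without control 1. Fits without DZNep 1 or DZNep 2 keep 1 treated library, which is assumed to vary like the others. Genes pass less easily there. A smaller count or a lost call therefore does not show that the library left out carried the change.

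The genes called higher were of another kind than those called lower. Among all annotated genes tested 89.8% were protein coding, among those called lower 88.4%, and among those called higher 77.4%, with 38 of 168 being long noncoding RNAs, processed transcripts or other biotypes. Both groups were low in level, with a median over controls of 4.82 CPM for those called higher and 2.58 CPM for those called lower, against 22.1 CPM for all genes tested. The 4 controls and the 2 treated libraries did not overlap in 161 of the 168 and in 113 of the 113, against 45.9% of all genes tested. The called genes were chosen by a test on these same libraries, so their separation follows largely from that choice.

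Libraries of rods sorted from saline-treated rd10 mice, from another experiment of the series, were used to ask where the changed genes are expressed. These mice also carried a homozygous Nrl-EGFP transgene. Their retinas were dissociated, and the libraries were made with a SMART-Seq kit that the study describes for sorted rods only. The ratios to whole retina therefore also hold differences of strain and preparation, whose part was not tested. Genes were placed in classes by the ratio of their level in 2 libraries of sorted rods to that in 8 control retinas of the other experiments, none of which enter the DZNep comparison. Of all genes tested, 19.9% were more than 2-fold higher in sorted rods and 35.6% more than 2-fold lower. Among the genes called higher, 103 of 168 (61.3%) were of the rod-enriched class and 23 (13.7%) of the rod-depleted class. Among those called lower the shares were 2 of 113 (1.77%) and 71 (62.8%). The shift reached beyond the called genes: the median log2 fold change after DZNep was 0.17 over the 3278 rod-enriched genes, 0.02 over the 7332 between and -0.16 over the 5867 rod-depleted genes. In the same order, 30.4%, 11.5% and 4.93% rose and 1.13%, 4.36% and 21.2% fell at the adjusted p-value. In RNA from whole retina, fewer cells of a type and less RNA per cell cannot be told apart. Levels are also relative to the scaled library. A lower level of 1 cell type can thus not be told apart from a larger share of transcripts of another.

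**Figure D1:**
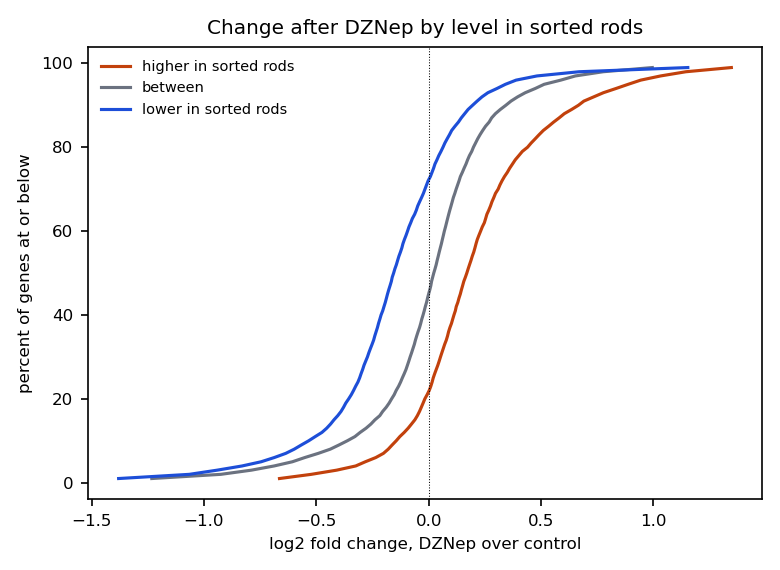
Share of genes (percent, vertical axis) at or below each log2 fold change of DZNep over control (horizontal axis), drawn from the 1st to the 99th percentile for genes higher in sorted rods, between, and lower in sorted rods. The 3 curves are shifted against each other, with medians of 0.17, 0.02 and -0.16.

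By p-value the genes called higher were led by 2610034M16Rik, which was at 88.1, 82.4, 84.3 and 68.2 CPM in controls 1 to 4 and at 313 and 281 CPM in DZNep 1 and 2. The lowest treated library was thus above 3 times the highest control, and the log2 fold change was 1.88 ± 0.09 (SE, adjusted p = 0.000116). Its level in sorted rods exceeded that in whole retina by 2.27 on the log2 scale. Most of the other leading genes were rod-enriched as well. Scn4a, a voltage-gated sodium channel of skeletal muscle, was at 12.2, 11.2, 11.7 and 8.06 CPM in controls and at 39.4 and 33.0 CPM after DZNep. Gramd2 was at 30.6, 28.5, 29.5 and 22.7 CPM in controls and at 79.8 and 74.4 CPM after DZNep. Abca13, of the ABC transporter family, was nearly the same in all controls, from 5.67 to 6.01 CPM, and at 13.3 and 12.7 CPM after DZNep. The log2 fold changes of these genes were 1.76, 1.47 and 1.15. The leading genes were picked from those whose groups did not overlap.

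Ppap2c, a lipid phosphate phosphatase (1.54), Fam3c, a secreted factor (1.12), Pdia5, a disulfide isomerase of the endoplasmic reticulum (1.15), Arl4d, a small GTPase (1.34), and the lincRNAs Gm16862 (1.54) and RP23-252I12.4 (1.37) rose by similar log2 amounts, all rod-enriched. Not all leading genes were: Ccdc64 rose by 1.12 on the log2 scale from 154 to 203 CPM in controls to 397 and 370 CPM, although its level in sorted rods was lower than in retina by 1.69 on the log2 scale. Selenbp1, a selenium-binding protein with methanethiol oxidase activity, and Zdhhc2, a palmitoyltransferase, rose by 1.65 and 1.08 on the log2 scale and were within 2-fold of the retina in sorted rods. Among the genes with the largest changes, Glb1l3, of the beta-galactosidase family, rose from 0.322 to 1.09 CPM in controls to 6.59 and 6.25 CPM (log2 fold change 3.17 ± 0.30), Hdc, the enzyme that makes histamine, from 0.459 to 1.06 CPM to 2.45 and 3.87 CPM, and E230001N04Rik and Gm14091 by 1.96 and 1.93 on the log2 scale. 1700027L20Rik (2.38) and the sulfate transporter gene Slc13a4 (1.95) passed through uneven libraries. The first ran from 0.115 to 2.32 CPM in controls and no longer passed without control 2 or 3 or without either DZNep library (adjusted p = 0.0851, 0.0818, 0.157 and 0.0922). Slc13a4 was at 24.9 CPM in DZNep 2 and at 5.66 CPM in DZNep 1, within the controls, and no longer passed without control 2, 3 or 4 or without DZNep 2 (adjusted p = 0.11, 0.11, 0.0902 and 0.548).

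Among the genes called lower, Syt15, a synaptotagmin, was at 68.3, 66.0, 66.3 and 67.5 CPM in controls and at 33.6 and 31.5 CPM after DZNep. Gna14, a G protein alpha subunit, fell from 15.5 to 18.2 CPM to 5.57 and 4.69 CPM, a log2 fold change of -1.67 ± 0.12. Spon2, a secreted matrix protein, was at 7.19, 7.68, 7.47 and 8.22 CPM in controls and at 2.13 and 1.71 CPM after DZNep (-1.95 ± 0.15). In these genes, also picked from those whose groups did not overlap, the controls were close together. Hkdc1, a hexokinase, fell from 40.8 to 54.1 CPM to 15.5 and 17.0 CPM (-1.58), whereas the main photoreceptor hexokinase Hk2 rose. Tph2, the neuronal enzyme that makes serotonin, Aplnr, the apelin receptor of endothelium, Arhgap15, a Rac GTPase-activating protein, Prtg, protogenin, and the transcripts 1700128E19Rik, 5430419D17Rik and Fam101b fell by 1.03 to 1.72 on the log2 scale. Of these 7, 5430419D17Rik and Prtg were not lower in sorted rods than in retina.

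**Figure D2:**
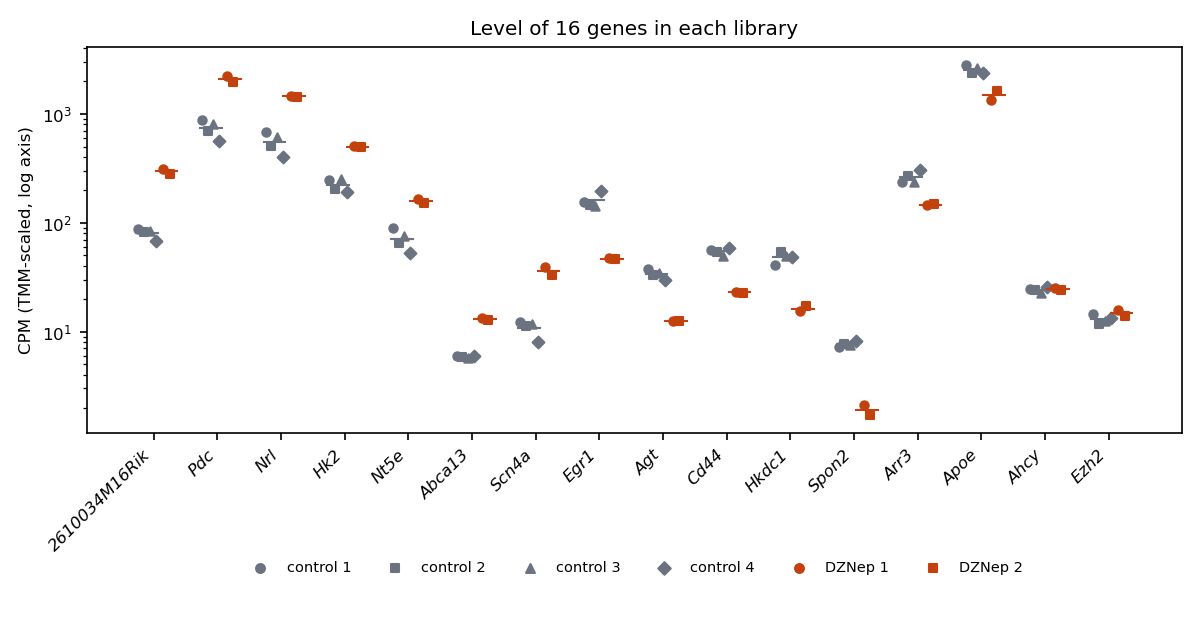
Level of 16 genes (CPM scaled by TMM factors, logarithmic vertical axis) in the 4 control libraries (grey) and the 2 DZNep libraries (orange), with a bar at each group mean. For the first 7 genes both DZNep libraries lie above all controls, for the next 7 below them, and for Ahcy and Ezh2 the groups lie close together.

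Rod phototransduction genes rose together. All 21 were higher at the adjusted p-value, with log2 fold changes of at least 0.45 and a median of 1.02, and 11 were called. Guca1b, a calcium sensor of guanylate cyclase, was at 474, 347, 416 and 291 CPM in controls and at 1103 and 1061 CPM after DZNep (1.5 ± 0.16). Pdc, phosducin, which binds the transducin beta-gamma subunits, was at 872, 696, 809 and 562 CPM in controls and at 2215 and 1940 CPM after DZNep (1.5 ± 0.15). The controls differed from each other in these genes, control 1 being the highest and control 4 the lowest in 21 of 21, and both treated libraries lay above all of them. Within the list, the 10 genes of the activation cascade (median 1.09) and the 11 of shut-off and calcium feedback (median 0.87) both rose in full; arrestin, Sag, rose least. Guca1a and Gnb5, the partner of RGS9, rose by 0.94 and 0.65.

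The transcription factors of photoreceptors rose in 14 of 17 cases and fell in none. Nrl, which sets rod fate, was at 677, 506, 611 and 400 CPM in controls and at 1463 and 1435 CPM after DZNep (1.40 ± 0.17). Esrrb, an orphan nuclear receptor needed for rod survival, was at 220, 182, 217 and 122 CPM in controls and at 555 and 498 CPM after DZNep (1.51 ± 0.19). Nr2e3 (1.23) and Mef2c (1.09), named after their values were seen, were also called. Crx, likewise, rose by 0.89, Casz1 by 0.88 and Rorb by 0.48, short of the fold threshold. The groups did not overlap for any of these. In sorted rods Esrrb, Casz1 and Nrl were within 2-fold of whole retina, and Nr2e3, Mef2c, Rorb and Crx were rod-enriched.

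Genes of the outer segment and connecting cilium rose in 27 of 42 cases (64.3%) and fell in none, with a gradient over the parts of the organelle. All 8 genes of disc structure rose (median 1.01). Of 19 genes linked to Leber congenital amaurosis and Bardet-Biedl syndrome, 14 rose (median 0.48), among them Tulp1 (0.98), Unc119, a carrier of lipid-modified cargo (0.91), and Bbs1 (0.38). Of 15 genes of intraflagellar transport, which many ciliated cells use, 5 rose (median 0.17). Abca4, the retinoid flippase of the disc rim, was at 709, 570, 634 and 476 CPM in controls and at 1218 and 1240 CPM after DZNep (1.04 ± 0.13). Impg1 of the interphotoreceptor matrix rose by 1.02. Without DZNep 1, 16 of the 42 genes rose. Nxnl1, which encodes rod-derived cone viability factor, rose by 0.81, and its paralog Nxnl2, named after its values were seen, by 1.36, from 28.2 to 45.3 CPM in controls to 96.2 and 90.0 CPM. The call of Nxnl1 was lost without DZNep 1 (adjusted p = 0.0758).

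Promoter sequence was read for genes that moved together. The 250 bases before the start of 12052 of the 16477 tested genes were searched on both strands for TAATCC, the core recognised by the homeodomain of CRX. It was found before 5.3% of all genes searched, before 13 of 118 genes called higher (11%), before 3 of 79 called lower (3.8%) and before 6.96% of all rod-enriched genes. Of the 71 rod-enriched genes called higher, 8 (11.3%) held it. A pair of GAAA separated by 2 bases, the core of the interferon-stimulated response element, was found before 2.51% of all, 1.69% of those called higher and 3.8% of those called lower. TATAAA stood before 6.62% of all, 11% of those called higher and 20.3% of those called lower, and the median number of CpG in the window was 15, 5 and 7. A match is a description of these letters and not a binding site. Shown are windows of 100 bases, 5′ to 3′ in the direction of the gene, with the match in capitals, for 4 of those 8 rod-enriched genes, for the pigment epithelium gene Rpe65 and for B2m of MHC class I. GGATTA is TAATCC read on the other strand. The windows, from RefSeq on GRCm38.p6, are Cnga1 chr5:72642901-72643000, minus strand; Abca4 chr3:122044360-122044459, plus strand; Gucy2f chrX:142196937-142197036, minus strand; Nxnl2 chr13:51170853-51170952, plus strand; Rpe65 chr3:159599081-159599180, plus strand; and B2m chr2:122147528-122147627, plus strand. Cnga1, Gucy2f, Nxnl2 and B2m were named after their values were seen.
Cnga1: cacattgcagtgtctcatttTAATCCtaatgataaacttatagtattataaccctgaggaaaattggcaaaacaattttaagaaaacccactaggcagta
Abca4: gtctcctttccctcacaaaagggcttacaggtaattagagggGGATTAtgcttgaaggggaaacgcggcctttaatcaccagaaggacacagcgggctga
Gucy2f: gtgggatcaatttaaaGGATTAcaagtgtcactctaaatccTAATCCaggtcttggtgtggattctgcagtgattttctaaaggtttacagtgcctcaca
Nxnl2: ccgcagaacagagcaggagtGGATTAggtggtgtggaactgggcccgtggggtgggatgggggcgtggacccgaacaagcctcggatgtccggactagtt
Rpe65: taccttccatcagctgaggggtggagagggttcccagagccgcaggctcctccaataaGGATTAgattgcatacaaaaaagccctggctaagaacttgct
B2m: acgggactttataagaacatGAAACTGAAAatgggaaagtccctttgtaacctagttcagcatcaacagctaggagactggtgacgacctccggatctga
Gucy2f, a photoreceptor guanylate cyclase, held the letters on both strands; its level was 95.8, 74.7, 78.8 and 60.4 CPM in controls and 165 and 161 CPM after DZNep (1.08). Cnga1, a subunit of the rod channel gated by cyclic GMP, was at 373, 280, 338 and 225 CPM in controls and at 764 and 671 CPM after DZNep (1.24).

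Cone genes did not follow the rod genes. Of 13, none rose and 5 (38.5%) fell, with a median log2 fold change of -0.15. Arr3, cone arrestin, was at 236, 265, 237 and 307 CPM in controls and at 145 and 148 CPM after DZNep (-0.84 ± 0.10, adjusted p = 0.00129). Pde6c, the cone phosphodiesterase, was at 163 to 225 CPM in controls and at 130 and 121 CPM after DZNep (-0.61), and Gnb3, the beta subunit of cone transducin, at 742 to 800 and at 521 and 530 CPM (-0.54). The call of Pde6c was lost without DZNep 1 or DZNep 2 (adjusted p = 0.0566 and 0.0539). Opn1sw, the short-wave cone opsin, lay at 690 to 860 CPM in controls and at 663 and 772 CPM after DZNep, so that the groups overlapped. With the 9 control retinas of the same library series in place of the 4, the median of the list was 0.05, and Arr3 no longer passed (adjusted p = 0.604). The number of lower cone genes was 2 without either DZNep library, 3 without control 2 or 3 and 8 without control 1.

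At the ribbon synapse, where both photoreceptor types contact bipolar cells, 12 of 20 presynaptic genes rose and 1 fell. Elfn1, which links rods to rod bipolar cells (0.69), Stx3, the syntaxin of ribbon synapses (0.59), Rims2, an active zone protein (0.52), and Ctbp2, whose RIBEYE form builds the ribbon (0.41), rose. Rims2, for one, was at 132 to 148 CPM in controls and at 210 and 194 CPM after DZNep. The gene that fell was Cplx3, a complexin also used by bipolar and amacrine cells (-0.21), and its call was lost without control 2, 3 or 4 or without either DZNep library (adjusted p = 0.0661 to 0.165).

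Relative to the scaled library, genes of the inner retina were lower by small amounts. All 27 bipolar genes had a negative log2 fold change, with a median of -0.24 and a range of -0.58 to -0.02, and 14 (51.9%) fell at the adjusted p-value. Grm6, the glutamate receptor of ON bipolar cells, was at 256, 285, 263 and 318 CPM in controls and at 179 and 200 CPM after DZNep (-0.57 ± 0.09). Rgs11, which shuts off the same pathway, was at 102 to 121 CPM in controls and at 69.5 and 77.0 CPM after DZNep (-0.58). Vstm2b, a bipolar surface protein, fell by 0.44 on the log2 scale. The groups were apart in all 3 genes, by less than the changes of rod genes. Without DZNep 1 or DZNep 2, 5 and 6 of the 27 fell, and 9 without control 2. Grm6 was not among them without DZNep 1 (adjusted p = 0.0573), while the median stayed at -0.25 and -0.24.

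The horizontal, amacrine and ganglion cell lists were likewise shifted down, with 6 of 9, 8 of 26 and 7 of 18 genes lower and medians of -0.37, -0.16 and -0.28. Calb1, the calbindin of horizontal cells, was at 102 to 116 CPM in controls and at 92.4 and 86.8 CPM after DZNep (-0.29). Onecut2, a factor of horizontal cell fate (-0.48), Cck, the peptide of amacrine cells (-0.62), and Chrnb3, a nicotinic receptor subunit of ganglion cells (-0.44), fell. None of these 4 calls held without DZNep 1 (adjusted p = 0.0511, 0.168, 0.0731 and 0.0989), and those of Calb1 and Chrnb3 did not hold without DZNep 2 (adjusted p = 0.0707 and 0.0562). The counts depended on which libraries entered the fit. Horizontal cell genes fell in 2 cases without either treated library. Of the amacrine genes, 1 fell without DZNep 1, 3 without DZNep 2, 3, 5 and 5 without control 2, 3 or 4 and 16 without control 1. Without either treated library none of the 18 ganglion cell genes passed, with medians of -0.31 and -0.25, and 1, 1 and 3 passed without control 2, 3 or 4 and 17 without control 1.

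Transmitter receptors of the inner retina were lower as well. Of 37 receptors for glutamate, GABA and glycine, 16 (43.2%) fell and none rose, with a median of -0.23. Grm7, of bipolar and amacrine cells, was at 35.5 to 39.9 CPM in controls and at 23.3 and 26.7 CPM after DZNep (-0.62), and Gabra3, a GABA receptor subunit, at 73.1 to 77.2 and at 60.2 and 55.5 CPM (-0.37). Without DZNep 1 or 2, 4 and 6 of the 37 fell, and 10 without control 2. Of 36 potassium channels 11 (30.6%) fell and 4 (11.1%) rose, against 9.72% and 12.9% of all genes. Among those that rose were the rod-enriched Kcnj14 (1.32) and Kcnv2, a modifier subunit of photoreceptor potassium channels (0.83). The call of Kcnv2 was lost without DZNep 1 (adjusted p = 0.0551), and 2 channels fell without DZNep 1, 6 without DZNep 2 and 22 without control 1. Kcnj10, the Kir4.1 channel of Müller glia, fell by 0.43. Of 33 calcium channels and pumps, 10 fell and 2 rose; those that fell were 1 without DZNep 1, 5 without DZNep 2 or control 2 and 17 without control 1, and none rose without DZNep 1.

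**Figure D3:**
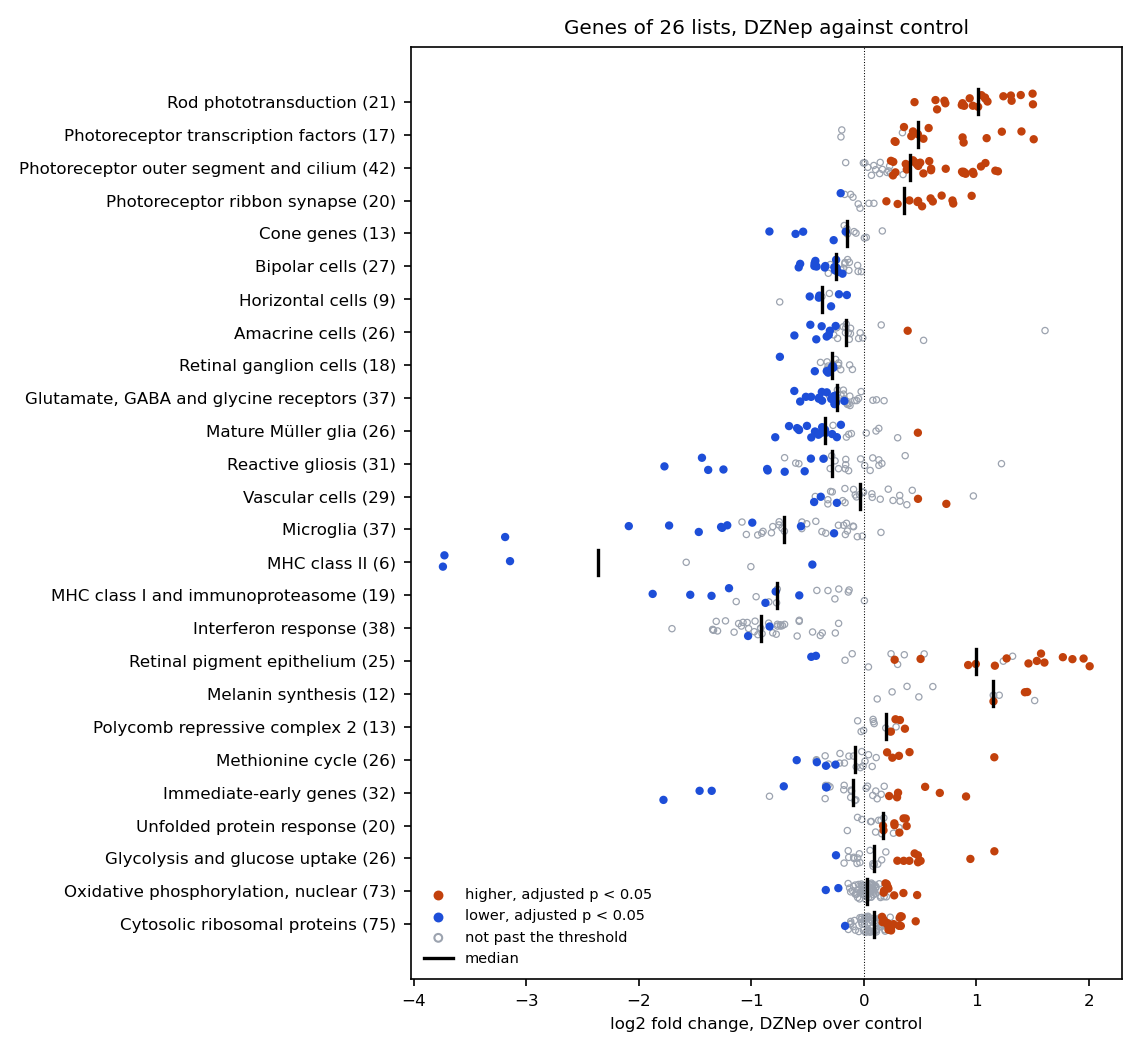
Log2 fold change of DZNep over control (horizontal axis) for the tested genes of 26 lists (1 point per gene, number tested in brackets), coloured by direction where the adjusted p-value passed, with a bar at the median. Rod lists lie to the right of 0, with a median of 1.02 for phototransduction, and the lists of inner retinal neurons and Müller glia to the left, with medians of -0.16 to -0.37.

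Müller glia, which recycle glutamate and carry water and potassium, were lower in their mature markers, 17 of 26 (65.4%) falling and 1 rising, with a median log2 fold change of -0.34. The summed level of the 26 genes was 13749, 13726, 14148 and 13977 CPM in controls and 9840 and 10674 CPM after DZNep. Apoe, the lipid carrier, was at 2833, 2357, 2628 and 2371 CPM in controls and at 1340 and 1613 CPM after DZNep (-0.79 ± 0.11). Aqp4, the water channel of the endfeet, was at 241 to 268 CPM in controls and at 151 and 170 CPM after DZNep (-0.66). Rlbp1, the retinaldehyde-binding protein (-0.47), Prdx6, a peroxiredoxin (-0.59), and Sox9, a factor of Müller and progenitor cells (-0.58), fell. Glul, glutamine synthetase, fell by 0.37, a call lost without control 2 or 3 or DZNep 1 (adjusted p = 0.0661, 0.0632 and 0.158). The gene that rose was Slc16a3, a lactate exporter (0.48), whose call was lost without DZNep 1 or 2 (adjusted p = 0.0578 and 0.0846). The number of lower genes was 11 without DZNep 1 and 14 without DZNep 2.

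Of 31 genes of reactive gliosis, 10 (32.3%) fell and none rose. Cd44, a surface receptor of activated glia, was at 55.6, 54.0, 49.8 and 58.2 CPM in controls and at 23.2 and 22.6 CPM after DZNep (-1.25 ± 0.07). Agt, angiotensinogen of glia, was at 37.2, 33.1, 34.6 and 30.04 CPM in controls and at 12.43 CPM in both treated libraries (-1.44). Steap4, a metalloreductase, was at 6.69 to 8.56 CPM in controls and at 2.60 and 1.56 CPM after DZNep (-1.77). The 3 genes thus fell to levels of less than 0.5 of the lowest control. Osmr, the oncostatin M receptor, fell by 0.47. Gfap, the intermediate filament most used as a sign of gliosis, did not pass: it was at 277, 163, 175 and 183 CPM in controls and at 172 and 139 CPM after DZNep (log2 fold change -0.35, adjusted p = 0.234). The acute phase gene Serpina3n (-0.86) and the protease inhibitor Timp1 (-1.38) fell, and their calls were lost without DZNep 1 (adjusted p = 0.0919 and 0.0578), that of Serpina3n also without DZNep 2 (adjusted p = 0.105). Gfap, Serpina3n and Timp1 were named after their values were seen. The median of the list, -0.29, was -0.15 without control 1, where 11 genes fell and 4 rose, and 5 genes fell without DZNep 1. With the 9 controls of the library series, 1 gliosis gene fell, with a median of -1.09.

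In the survival signals exchanged by photoreceptors and Müller glia, Edn2, endothelin 2 of injured photoreceptors, was at 54.7, 39.6, 48.5 and 36.3 CPM in controls and at 26.1 and 23.1 CPM after DZNep (-0.85). Its call was lost without DZNep 1 (adjusted p = 0.0552). Lifr, the receptor of leukemia inhibitory factor, rose from 55.8 to 64.9 CPM to 90.9 and 84.9 CPM (0.53). Gdnf, a neurotrophic factor named after its values were seen, lay under 1 CPM in all libraries (-1.25) and its call was lost in 5 of 6 fits that left out a library (adjusted p = 0.0784 to 0.186). In all, 2 of 29 genes of the list rose (6.9%) and 5 fell (17.2%), beside 12.9% and 9.72% of all genes; 3 fell without control 2, 3 or 4 and none without DZNep 1.

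Among immediate-early genes the Egr family stood lowest. Of the 32 genes, 18.75% rose and 18.75% fell, beside 12.9% and 9.72% of all genes. Egr1, a zinc finger factor induced by growth factor and synaptic signals, was at 153, 146, 143 and 197 CPM in controls and at 47.1 and 45.9 CPM after DZNep (-1.78 ± 0.13, adjusted p = 0.000289). Egr3 was at 3.19, 2.90, 2.72 and 4.01 CPM in controls and at 1.20 and 1.12 CPM after DZNep (-1.46 ± 0.24). Both treated libraries lay well below all controls in both genes. Egr2 was at 0.738 to 1.5 CPM in controls and at 0.467 and 0.521 CPM after DZNep (-1.35), and its call was lost without control 2 or 4 or either DZNep library (adjusted p = 0.0661 to 0.231). Fos, named after its values were seen, was at 46.5 to 59.0 CPM and at 40.2 and 40.1 CPM (-0.34), with its call lost without control 2 or 3 or either DZNep library (adjusted p = 0.0578 to 0.176). In the list as a whole 6 of 32 genes rose and 6 fell; these were 2 and 2 without DZNep 1 and 5 and 3 without DZNep 2. The higher ones included Ier3 (0.91) and Gadd45a (0.68), which are rod-enriched, and Gadd45b (0.55), whose call was lost without DZNep 1 (adjusted p = 0.129).

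DZNep blocks S-adenosylhomocysteine hydrolase, so the methionine cycle was examined gene by gene. Of its 26 genes tested, 19.2% rose and 15.4% fell, beside 12.9% and 9.72% of all genes. Ahcy, the hydrolase itself, was at 24.4, 24.3, 22.8 and 25.7 CPM in controls and at 24.9 and 24.04 CPM after DZNep (0.01 ± 0.07, adjusted p = 0.930). Its paralog Ahcyl1, an inhibitor of the IP3 receptor, rose from 297 to 318 CPM to 423 and 393 CPM (0.41), and Ahcyl2 did not pass (-0.09, adjusted p = 0.276). Neither Mat2a nor Mat2b, which form the enzyme that makes S-adenosylmethionine, passed (0.04 and -0.02). On the side of adenosine, Nt5e, the ectonucleotidase CD73 that marks rod precursors, was at 89.6, 64.8, 75.2 and 52.6 CPM in controls and at 164 and 151 CPM after DZNep (1.16 ± 0.16), and Adk, adenosine kinase, was lower without passing (-0.22, adjusted p = 0.0542). Nt5e is rod-enriched, by 2.98 on the log2 scale. Mtap, of methionine salvage, fell by 0.60. The call of Mtap was lost without DZNep 1 (adjusted p = 0.0851). In all 5 of 26 genes rose and 4 fell; these were 2 and 1 without DZNep 1, and 3 and 2 without DZNep 2 or control 2, 3 or 4.

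The transcripts of PRC2 changed little. Of 13 genes, including 2 H3K27 demethylases that are not part of the complex, 4 (30.8%) rose and none fell. Of all genes 12.9% rose and 9.72% fell. The median log2 fold change of the 13 was 0.20, and 0.08 under scaling by library size. Ezh2 was at 14.3, 11.7, 12.6 and 13.4 CPM in controls and at 15.8 and 13.8 CPM after DZNep (0.20, adjusted p = 0.208), so that DZNep 2 lay within the controls. Its paralog Ezh1 rose from 91.0 to 95.7 CPM to 120 and 112 CPM (0.32), and Suz12, a core subunit, from 117 to 125 CPM to 167 and 146 CPM (0.37). Jarid2 (0.28) and Phf1 (0.24), accessory subunits, rose, and both calls were lost without DZNep 1 (adjusted p = 0.0979 and 0.0528). Eed (0.23), Rbbp4 (0.09), Rbbp7 (-0.02), Aebp2 (0.09), Mtf2 (0.08) and Phf19 (-0.05) did not pass. Nor did the H3K27 demethylases Kdm6a (0.29) and Kdm6b (0.00), the X-linked Kdm6a being at 50.7 CPM in control 3, the library with Y-linked transcripts, and at 80.9 to 94.7 CPM elsewhere. Without DZNep 1, 2 of the 13 genes rose.

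Of the genes that PRC2 or DNA methylation is known to keep silent, most were too low to test. None of the 39 Hox genes passed the filter, and their summed level was 0.115 to 0.273 CPM in controls and 0.0584 and 0 CPM after DZNep, a level at which 3 counts correspond to 0.0875 and 0.223 CPM in the treated libraries. Of 47 other developmental regulators 13 passed the filter, and of 22 germline genes 5, with none higher or lower at the adjusted p-value. Of 30 other enzymes of histone and DNA methylation 13 (43.3%) rose and none fell, with a median of 0.16 that was 0.04 under scaling by library size. Tet3, an oxidase of methylcytosine, rose from 170 to 205 CPM to 294 and 289 CPM (0.64) and Dnmt3a, a DNA methyltransferase, from 316 to 349 CPM to 458 and 435 CPM (0.41). Without DZNep 1, 4 of the 30 rose.

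Metabolic genes of photoreceptors were higher. Hk2, the hexokinase of photoreceptor aerobic glycolysis, was at 248, 202, 252 and 192 CPM in controls and at 501 and 499 CPM after DZNep (1.16 ± 0.11). Pfkfb2, which makes the activator of phosphofructokinase, was at 170 to 199 CPM in controls and at 373 and 339 CPM after DZNep (0.95). Hk1 (0.40) and the glucose transporter gene Slc2a1 (0.48) rose by less, and their calls were lost without DZNep 1 (adjusted p = 0.0786) and without DZNep 2 (adjusted p = 0.0775). Of the 26 glycolysis genes 9 rose and 1 fell, with a median of 0.09, and 5 rose without either treated library. Acadm, of fatty acid oxidation (0.64), and Ppargc1a, a regulator of mitochondrial genes (0.53), rose, but the lists of oxidative phosphorylation (9 of 73 higher, 2 lower) and of the citric acid cycle (3 of 22 and 1) held 12.3% and 13.6% risen genes, beside 12.9% of all. Of the 73, 2 rose without DZNep 1, 3 without DZNep 2, 4 without control 2 and 5 without control 4. Cytosolic ribosomal protein genes were higher in 20 of 75 cases and lower in 1, but in 3 without DZNep 1, 10 without DZNep 2 or control 2, 13 without control 4, 5 with a replicate block, 1 with 22 retinas in one fit and none with the 9 controls. Their median of 0.09 turned to -0.03 under scaling by library size and to -0.07 with the 9 controls of the library series. Vldlr, a lipoprotein receptor of photoreceptors (0.68), and Tfrc, the transferrin receptor (0.54), rose.

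Genes of protein folding moved both ways. The heat shock genes Hspa1a and Hspa1b, near-identical copies whose reads the counting may split, were at 11.2 to 16.9 and 8.75 to 12.9 CPM in controls. After DZNep they were at 28.2 and 28.6 and at 25.8 and 22.3 CPM (1.02 and 1.18). The other 13 chaperones gave 1 higher and 5 lower; those lower were 1 without DZNep 1, 2 without DZNep 2 or control 2 and 3 without control 3 or 4. Of 20 endoplasmic reticulum chaperones, 8 rose (median 0.17), Hspa5, the chaperone BiP, by 0.38, a median that was -0.04 with the 9 controls of the library series. The number that rose was 3 without either treated library, 4 without control 2 and 5 without control 3.

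Genes of cell death and its inhibitors gave 4 of 37 higher and 6 lower; these were 1 and 0 without DZNep 1, 2 and 4 without DZNep 2, 1 and 3 without control 2, 3 and 3 without control 3 and 2 and 5 without control 4. With all libraries 10.8% were higher and 16.2% lower, beside 12.9% and 9.72% of all genes. Of the cell cycle genes given below, 9.76% rose. Xiap, an inhibitor of caspases, rose from 241 to 263 CPM to 405 and 362 CPM (0.61). Casp1, the inflammasome caspase, was at 1.41, 1.38, 2.54 and 1.41 CPM in controls and at 0.204 and 0.372 CPM after DZNep (-2.67), and Casp12 fell by 1.43 from at most 1.68 CPM. Both calls were lost without DZNep 1 (adjusted p = 0.0905 and 0.0562). Gsdmd, the pore-former of pyroptosis, fell by 1.00, with its call lost without control 3 or either DZNep library (adjusted p = 0.0608, 0.127 and 0.114). Tnfaip3, which restrains NF-kappaB, and Optn, an autophagy receptor, rose by 1.02 and 0.74 and are rod-enriched. Of the metallothioneins Mt2 fell by 0.69 and Mt1 by 0.30, the call of Mt1 being lost without DZNep 1 or 2 (adjusted p = 0.0723 and 0.0601). Of 41 cell cycle genes 4 rose and none fell, Cdkn2c, an inhibitor of the cycle, by 0.84; 2 rose without either treated library and 9 without control 1.

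In the extracellular matrix, 12.5% of 32 collagens rose and 9.38% fell, beside 12.9% and 9.72% of all genes. The basement membrane collagens Col4a3 (1.05) and Col4a4 (1.34) rose, the latter from 4.06 to 5.58 CPM to 11.9 and 12.3 CPM. Col8a2 of Bruch's and Descemet's membranes rose by 1.27, with its call lost without DZNep 1 (adjusted p = 0.0575). The list gave 4 of 32 collagens higher and 3 lower, which became 7 and 0 without DZNep 1, 4 and 5 without control 3 and 5 and 1 without control 4. Mmp14, a membrane-bound matrix protease, was at 56.0, 52.6, 55.1 and 53.6 CPM in controls and at 29.03 and 29.4 CPM after DZNep (-0.90 ± 0.06), and Adamts5, an aggrecanase, at 69.8 to 77.8 and at 44.1 and 50.2 CPM (-0.68). In both genes all controls were close together and above both treated libraries. The integrin subunit Itgb5 fell by 0.65. More genes of Wnt and BMP signalling fell than rose: 8 of 41 Wnt genes (19.5%) fell and 4 (9.76%) rose, and 6 of 29 TGF-beta and BMP genes (20.7%) fell and 3 (10.3%) rose. The lower counts were 3 and 1 without DZNep 1, 8 and 3 without DZNep 2, 5 and 4 without control 2 or 3, and 1 TGF-beta and BMP gene rose without DZNep 2 or control 2 or 3. Of the higher genes the inhibitor Sfrp5 rose from 0.231 to 0.368 CPM to 0.934 and 1.27 CPM (1.73), and the agonist Rspo2 (1.61), the BMP inhibitor Nog (1.02) and Fzd4, the receptor of norrin (0.76), rose; among the lower ones was the receptor Fzd7 (-0.57). The calls of Rspo2 and Fzd4 were lost without DZNep 1 (adjusted p = 0.0910 and 0.0682) and that of Nog without control 2, 3 or 4 or either treated library (adjusted p = 0.0602 to 0.326). Kdr, the VEGF receptor of endothelium, fell by 0.44.

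The retinal pigment epithelium lies against the photoreceptors and part of it can stay on a dissected retina. Of 25 of its genes 14 (56%) rose, 10 of them called, and 2 fell, with a median log2 fold change of 1.00. Rpe65, the retinoid isomerase, was at 5.28, 7.91, 3.28 and 8.26 CPM in controls and at 23.7 and 24.6 CPM after DZNep (1.95 ± 0.27). Rgr, a retinal G protein-coupled receptor, was at 12.7, 23.2, 9.97 and 26.4 CPM in controls and at 66.6 and 80.2 CPM after DZNep (2.01 ± 0.31). Stra6, the receptor of retinol-binding protein, was at 7.88 to 13.3 CPM in controls and at 27.9 and 28.96 CPM after DZNep (1.46). Both treated libraries were above all controls in these 3 genes, and the controls differed by over 2-fold among themselves in Rpe65 and Rgr. In the markers Best1 and Ttr the groups overlapped. Best1 was at 0.535 to 1.11 CPM in controls and at 1.20 and 0.968 CPM after DZNep. Ttr was at 26.9 to 88.9 CPM in controls and at 70.8 and 84.8 CPM after DZNep. The list shares Rlbp1 with the Müller list and Otx2 with the photoreceptor transcription factors. Krt8 (1.77) and Krt18 (0.93) rose, as did, named after their values were seen, the lactate transporter gene Slc16a8 (1.54), Lrat (1.61) and Mfrp (1.85). Mfrp was at 33.0 CPM in DZNep 2 and at 11.8 CPM in DZNep 1, and its call was lost without DZNep 2 (0.97, adjusted p = 0.0578). That of Lrat was lost without DZNep 1 or 2 (adjusted p = 0.0990 and 0.0850). The summed level of the list ran from 1659 to 1812 CPM in controls and was 1875 and 1963 CPM after DZNep. The median was 1.20 and 9 genes rose without DZNep 1, and 0.74 and 10 without DZNep 2.

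Pigment, lens and blood genes differed between the 2 treated libraries. The 12 melanin genes summed to 94.7, 66.5, 49.5 and 83.3 CPM in controls, 66.6 CPM in DZNep 1 and 233 CPM in DZNep 2. Tyr, tyrosinase, was at 1.38 to 3.31 CPM in controls, 4.67 CPM in DZNep 1 and 10.5 CPM in DZNep 2 (1.43), and its call was lost without DZNep 2 (adjusted p = 0.205). The median of the list was 1.15 with both libraries, 0.09 without DZNep 2 and 1.65 without DZNep 1. Slc24a5, an exchanger of the melanosome, rose by 1.45. Cryaa and Crybb2 of the lens were at 36.99 and 13.99 CPM in DZNep 2 and at no more than 0.644 and 0.738 CPM elsewhere, so their log2 fold changes (5.78 and 3.84) came from that library. Without it they were 0.44 and -1.15 (adjusted p = 0.780 and 0.326), and Crybb2 did not pass without any one of the controls (adjusted p = 0.0614 to 0.0929). Blood genes summed to 61.7 to 135 CPM in controls and to 170 CPM in DZNep 1 and 87.6 CPM in DZNep 2. Hbb-b1, a globin, was at 88.4 CPM in DZNep 1 and at 20.7 to 48.0 CPM in controls (1.13), and its call was lost without control 1, 2 or 4 or without DZNep 1 (adjusted p = 0.0590 to 0.503). The part of pigmented, lens or blood cells in the pigment epithelium result was not tested.

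**Figure D4:**
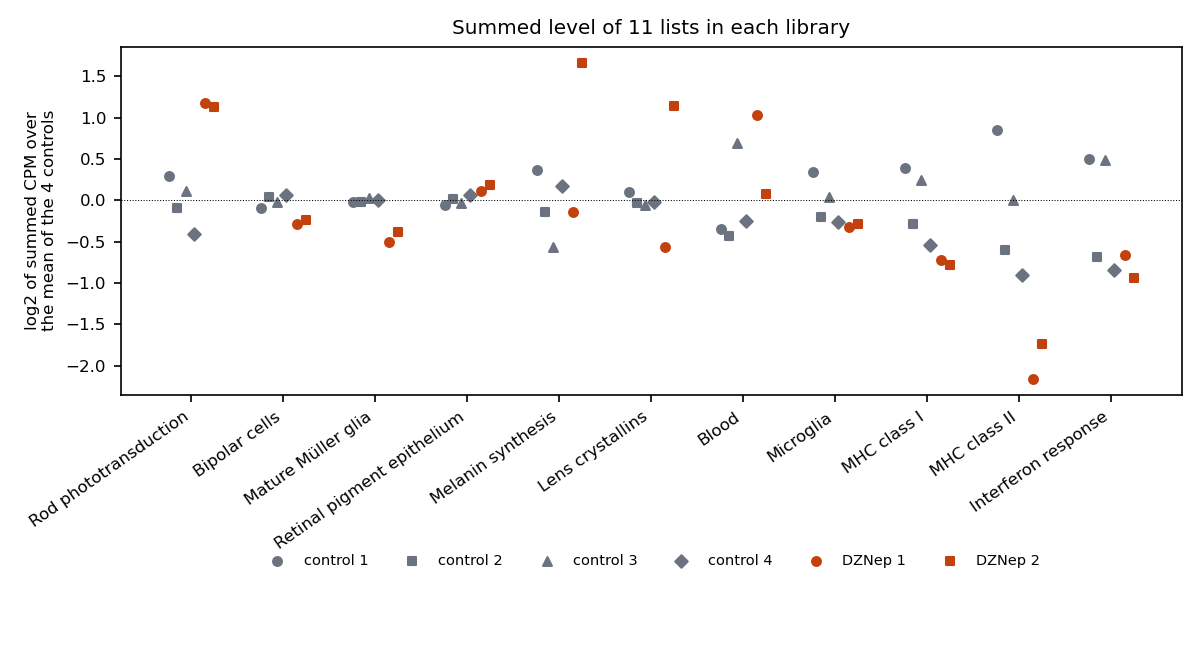
Log2 of the summed CPM of 11 gene lists over the mean of the 4 controls (vertical axis) for each control library (grey) and each DZNep library (orange). Rod genes are above and Müller and MHC class II genes below the controls in both DZNep libraries, whereas melanin and lens genes are raised in DZNep 2 alone.

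Immune genes were lower, with wide spread among controls. The 10 MHC class II genes summed to 72.4, 26.5, 40.1 and 21.5 CPM in controls and to 8.99 and 12.0 CPM after DZNep. H2-Aa, an MHC class II chain, was at 12.5, 3.54, 5.17 and 2.25 CPM in controls and at 0.175 and 0.968 CPM after DZNep (-3.74 ± 0.92), and H2-Eb1 at 10.5, 2.90, 4.94 and 2.29 CPM and at 0.642 and 0.447 CPM (-3.14). Control 1 was the highest in all 6 class II genes tested, and without it the median of the list moved from -2.36 to -1.81. The calls of H2-Aa, H2-Eb1 and Cd74, the invariant chain (-3.73), were lost without DZNep 1 (adjusted p = 0.213, 0.136 and 0.115), that of H2-Eb1 also without DZNep 2 (adjusted p = 0.0775).

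Of 37 microglial genes 10 (27%) fell and none rose, with a median of -0.71 that was -0.38 without control 1; 5 fell without control 3 and 18 without control 4. Those with the largest changes belong to activated or infiltrating phagocytes: Ms4a7 (-3.19), Lyz2, lysozyme (-2.09), and Itgax, CD11c (-1.73). Cybb, an NADPH oxidase subunit of phagocytes that is not in this list, changed by -2.17. Lyz2 was at 56.3, 19.9, 29.3 and 18.1 CPM in controls and at 8.02 and 6.03 CPM after DZNep. P2ry12 and Tmem119, markers of resident microglia, did not pass: P2ry12 was at 5.43 to 7.34 CPM in controls and at 6.16 and 6.25 CPM after DZNep (-0.06, adjusted p = 0.807), and Tmem119 at 5.35 to 9.01 and at 5.05 and 6.18 CPM (-0.34, adjusted p = 0.310). The groups overlapped in both. Cx3cr1 overlapped as well, at 28.5, 16.6, 24.2 and 15.6 CPM in controls and at 15.9 and 12.6 CPM after DZNep. The 18 homeostatic genes of the list were lower as a set, 17 being negative, with a median of -0.55. Of these, 3 fell at the adjusted p-value, beside 7 of the 19 phagocytic and activated genes (median -0.81). B2m, the light chain of MHC class I, was at 228, 121, 193 and 94.4 CPM in controls and at 71.6 and 51.3 CPM after DZNep (-1.35). Ly9, a receptor of lymphocytes and phagocytes (-2.03), and the GTPase-family gene Gm4951 (-2.26) were called as well. The calls of B2m, Cybb, Ly9 and Gm4951 were lost without control 3 (adjusted p = 0.0509, 0.0708, 0.0648 and 0.0551), that of Gm4951 also without control 2 (adjusted p = 0.0590). Without DZNep 1 none of the 7 genes named as called held (adjusted p = 0.0924 to 0.185), and without DZNep 2 only Ms4a7 did. No gene of the microglia, class I or class II lists fell without DZNep 1, and 1, 1 and 2 fell without DZNep 2, while the medians were -0.83, -0.78 and -1.99 and then -0.59, -0.72 and -2.38. All 38 interferon-response genes had a negative log2 fold change and 2 passed, none of them without control 3 or DZNep 1, 1 without control 2 or DZNep 2 and 15 without control 4; their summed level was 1258, 549, 1238 and 495 CPM in controls and 560 and 462 CPM after DZNep, so the groups overlapped.

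To ask which changes were shared with other inhibitors, the called genes were followed in 2 further experiments of the series on rd10 retina, with 3 treated and 3 control libraries each and their own controls: UNC1999, an EZH2 inhibitor that competes with S-adenosylmethionine, and Romidepsin, an inhibitor of histone deacetylases. Doses and schedules differed. UNC1999 was given in a mixture of DMSO, polyethylene glycol, Tween and saline, whereas DZNep and Romidepsin were given in saline. The study names the UNC1999 controls as diluent in a figure legend and as saline in its Results. The UNC1999 libraries also belong to another library series than those of DZNep and Romidepsin. Differences of vehicle and library series cannot be told apart from a difference between DZNep and UNC1999. Of the genes called higher after DZNep and tested in both experiments, 148 of 153 had the same sign after UNC1999, with a median log2 fold change of 0.99 against 1.24 after DZNep, and 109 of 147 after Romidepsin (0.45 against 1.23). Of those called lower, 80 of 96 had the same sign after UNC1999 (-0.83 against -1.34) and 83 of 101 after Romidepsin (-0.71 against -1.35). The genes were chosen by their change after DZNep, so the medians after DZNep are not independent of that choice. The share of all tested genes with the same sign in both experiments was not computed. How far these counts exceed the general agreement is therefore not known.

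The difference between the effects was tested for every gene. For DZNep less UNC1999, 1 of 16799 genes passed (0.00595%), Egr1, with a difference of -1.71 ± 0.17 on the log2 scale (adjusted p = 0.00605). Egr1 changed by -1.78 after DZNep and by -0.07 after UNC1999. It did not pass without DZNep 1 or DZNep 2, where 0 genes passed, and 2399 genes had an unadjusted p-value under 0.05. The likelihood ratio test gave 68 genes more positive and 102 more negative. For DZNep less Romidepsin, 7 of 16927 genes (0.0414%) were more positive and 17 (0.1%) more negative, and 2040 had an unadjusted p-value under 0.05. Without 1 library of the DZNep experiment 0 to 19 were more positive, the lowest without DZNep 2 and the highest without DZNep 1, and 1 was more negative in each case.

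Of the 24 genes that differed from Romidepsin, 10 are described above. Egr1 and Egr2 fell after DZNep and were 1.28 and 1.70 higher on the log2 scale after Romidepsin, giving differences of -3.06 (adjusted p = 0.00138) and -3.05 (adjusted p = 0.0472). Fos (-2.11), Mt2 (-2.85), Edn2 (-1.75) and Fam101b (-1.07) were also more negative after DZNep. The pigment epithelium genes Rpe65 (3.36), Mfrp (3.31) and Stra6 (2.28) and the collagen gene Col4a3 (2.11) were more positive. The other 14, named after their values were seen, were Prr11 (1.39), A930033H14Rik (1.45) and A930028C08Rik (2.93), more positive, and Fosl1 (-4.01), Lif (-3.58), Scube1 (-2.38), Cebpd (-2.07), P2ry2 (-1.68), Clcf1 (-1.66), Epha2 (-1.28), Slc14a1 (-1.26), Chrd (-1.23), Klf10 (-1.07) and Plat (-1.06), more negative. Lif, leukemia inhibitory factor, changed by 0.06 after DZNep and by 3.64 after Romidepsin. Rpe65 changed by 1.95 after DZNep, 2.37 after UNC1999 and -1.39 after Romidepsin. Of the 21 rod phototransduction genes, 21 were positive after UNC1999 and 19 after Romidepsin, with medians of 0.92 and 0.37, and none passed the test in either experiment. Gnat1, the rod transducin, changed by 1.08 after DZNep and by 0.02 after Romidepsin, and Gucy2f by 1.08 and -0.081. Pdc changed by 1.5, 1.19 and 0.85, Nrl by 1.40, 1.14 and 0.54 and Guca1b by 1.5, 1.05 and 1.07, in the order DZNep, UNC1999 and Romidepsin. Arr3 was at -0.84, 0.56 and -1.62, and Hkdc1 at -1.58, 0.12 and -0.03.

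**Figure D5:**
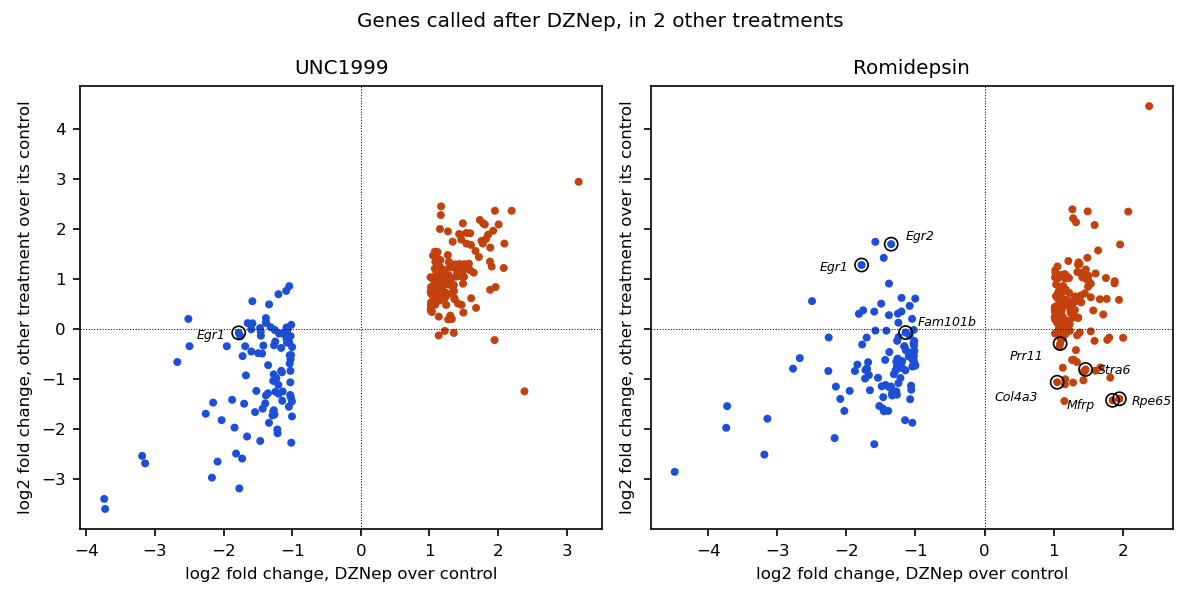
Log2 fold change after UNC1999 (left) or Romidepsin (right) over its own controls (vertical axes) against that after DZNep (horizontal axes) for the genes called after DZNep (orange higher, blue lower). Circled genes passed the test of the difference: Egr1 alone for UNC1999, and 8 genes for Romidepsin, with Egr1 and Egr2 above 0 and Rpe65, Mfrp, Stra6 and Col4a3 below 0 on the vertical axis.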

How the data were processed

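Retinal RNA of rd10 mice was sequenced from 4 saline-treated and 2 DZNep-treated mice, grouped by the labels, 1 library each; nothing says whether mice shared a litter, so p-values measure the spread between these samples. Per the labels and methods, the authors trimmed reads with BBDuk, aligned them to NCBIM37 with HISAT2 2.2.1 and counted them per Ensembl gene with HTSeq 0.11.2; the strand setting is not given in the sources used here, so a gene and its antisense partner cannot be told apart, and reads of near-identical genes may be split. The deposited values are raw counts. Replicates differed by more than counting error, so no library was a copy.

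Genes were filtered with filterByExpr, scaled by TMM and tested with the quasi-likelihood F test of edgeR 4.0.16 (R 4.3.3), where the authors used a likelihood ratio test, with Benjamini-Hochberg adjustment over all genes tested. Called genes have an adjusted p-value below 0.05 and a log2 fold change beyond 1 in either direction. A lost call refers to the adjusted p-value only. Differences between treatments were interaction terms in the same model. A count of 3, the floor, is 0.0875 to 0.223 CPM; this and all errors cover counting and library spread only. On simulated data for this comparison (16299 genes), the test called 90 of 97 genes changed by 1.5 on the log2 scale, 98 of 100 changed by 2.5 and 9 of 16102 unchanged. The simulation changed 200 genes and drew each gene on its own. Library differences shared by many genes are therefore not covered by it. Sorted rod ratios used a pseudocount of 1 CPM. Promoters came from the RefSeq table (GRCm38.p6), first entry per gene.

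Named are, in each direction, the 15 called genes of smallest p-value with the groups apart, the 10 with the largest changes at a mean of at least 1 CPM, up to 4 per list and direction with the smallest p-values, all genes of PRC2 and of SAH hydrolysis, adenosine removal and SAM synthesis, and the cell type markers; other genes are said to be named after their values were seen, and some genes are not reported here. The members, lists and tests were chosen with earlier results of these data known. Alternatives were DESeq2 1.42.0, RLE scaling, the likelihood ratio test, no filter or at least 10 counts in every library, no fold threshold, a replicate block, all 22 retina libraries in one fit, 9 control retinas of one library series and leaving out each library; scaling by library size was chosen after seeing the data. UNC0642 and GSK libraries were used only in the fit of all retinas or for control levels.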

Additional observations from a re-analysis of the deposited data

Results flagged for a closer look

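Among the 4 controls, a single library lay far from the others in 7 of 193 of the genes named in the text, where chance alone flags about 5% of groups. Casp1 was at 2.54 CPM in control 3 against a median of 1.41 CPM, and Kdm6a, which is X-linked, was at 50.7 CPM in control 3 against a median of 81.0 CPM, in the library with Y-linked transcripts. Slc13a4 was at 7.69 CPM in control 1, Sox9 at 43.1 CPM and Tph2 at 10.6 CPM in control 4, each the highest, and Vstm2b and A930033H14Rik were lowest at 58.3 and 23.4 CPM in control 1.

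The effect of DZNep differed from that of UNC1999 in Egr1, by -1.71 on the log2 scale. It differed from that of Romidepsin, in each case by the test of the difference, in Egr1 (-3.06), Egr2 (-3.05), Mt2 (-2.85), Fos (-2.11), Edn2 (-1.75), Fam101b (-1.07), Fosl1 (-4.01), Lif (-3.58), Scube1 (-2.38), Cebpd (-2.07), P2ry2 (-1.68), Clcf1 (-1.66), Epha2 (-1.28), Slc14a1 (-1.26), Chrd (-1.23), Klf10 (-1.07), Plat (-1.06), Prr11 (1.39), A930033H14Rik (1.45), Col4a3 (2.11), Stra6 (2.28), A930028C08Rik (2.93), Mfrp (3.31) and Rpe65 (3.36), with adjusted p-values from 0.00138 to 0.0497.

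The filter on low counts had removed 12 of the 21 lens genes from the tests. Their summed level was 37.4 CPM in DZNep 2 and at most 0.920 CPM in any control.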

How the results depend on the processing

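The count of genes called higher was 135 to 226 and of those called lower 35 to 142 when 1 library was left out. The lower count was 68 with at least 10 counts in every library, 62 with all 22 retinas in one fit and 208 under scaling by library size, and without the fold threshold 2133 and 1601 genes passed. Without a filter 199 and 148 genes were called, by the likelihood ratio test 189 and 162, by DESeq2 151 and 94, by RLE scaling 167 and 117, and with 9 controls 250 and 110.

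The replicate numbers did not pair the libraries (correlations of deviations -0.21 and 0.02). A replicate block gave 97 higher and 92 lower genes, 0 and 0 for the difference from UNC1999 and 3 more positive and 12 more negative for that from Romidepsin. The likelihood ratio test gave 68 and 102 for UNC1999 and 139 and 215 for Romidepsin; leaving out libraries gave 0 to 1 more negative for UNC1999 and, for Romidepsin, 0 to 19 more positive and 1 more negative.

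Of 166 named genes past the threshold, 41 no longer passed with 22 retinas in one fit, 38 with 9 controls (1 more, 1700027L20Rik, reversed to -0.67), 24 with the block, 45 without DZNep 1, 26 without DZNep 2 (and Crybb2 reversed, from -1.15 to 4.91 over the libraries left out), 2 to 13 without 1 control, and 0 to 4 under each other alternative. Medians that changed sign were those of cone genes (0.050), the unfolded protein response (-0.038) and ribosomal proteins (-0.067), with 9 controls, and of ribosomal proteins (-0.029) under library size. Genes not past the threshold also changed sign. Under library size these were Aebp2 (-0.031), Ahcy (-0.11), Mat2a (-0.075), Mtf2 (-0.034), Rbbp4 (-0.024) and Lif (-0.062). With 1 library left out they were Ahcy (-0.020 to 0.039), Mat2a (-0.047 to 0.12), Mat2b (-0.11 to 0.059), Phf19 (-0.46 to 0.16), Rbbp7 (-0.11 to 0.052), P2ry12 (-0.14 to 0.0074), Opn1sw (-0.18 to 0.037), Kdm6b (-0.070 to 0.070), Epha2 (-0.29 to 0.046) and Lif (-0.074 to 0.15). Opn1sw was 0.54 and Lif -1.34 with 9 controls, and Kdm6b 0.0080 with the block, 0.010 with 22 retinas and 0.027 with 9 controls. The cause was not tested. With 2 treated libraries and 14115428 reads in the shallower one, changes of genes near the floor are the least certain.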

Other observations

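The order of the controls was shared by lists that moved in opposite directions after DZNep. Summed over the list, rod phototransduction genes were at 35741 CPM in control 1, 31479 CPM in control 3, 27192 CPM in control 2 and 22005 CPM in control 4, and the MHC class II genes, at 72.4, 40.1, 26.5 and 21.5 CPM, stood in the same order. Control 1 was the highest and control 4 the lowest control in 21 of 21 rod genes, and in 33 and 25 of 37 microglial genes. Among the controls, then, libraries with more rod transcript also held more immune transcript, whereas after DZNep the summed rod genes were higher and the summed class II genes lower than in all controls. With 4 controls this is a description, and its cause was not tested.

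Further lists are given here beside all genes tested, of which 12.9% rose and 9.72% fell. Of 18 complement genes 2 fell and none rose (median -0.59), of 24 imprinted genes 3 rose and 6 fell, of 17 clock genes 3 rose and 1 fell, of 16 PRC1 subunits 3 rose and 3 fell, and of 31 proteasome subunits 2 rose. Of 35 genes of cholesterol synthesis and uptake 9 rose and 2 fell, and of 29 of fatty acid metabolism 9 rose and 2 fell; without DZNep 1, 3 and 4 of these rose. Of 20 p53 targets 3 rose and 2 fell, of 19 glucocorticoid targets 4 and 2, with Sgk1 at 0.71 on the log2 scale, of 27 genes of the integrated stress response 6 and 2, and none of the 11 mitochondrially encoded genes passed. Most of these counts were smaller without DZNep 1: none of the complement or proteasome genes passed, 1 imprinted gene rose and none fell, 1 gene of PRC1 rose and 1 fell, and 1 p53 target, 3 glucocorticoid targets and 4 genes of the stress response rose. Cdkn1c, an imprinted inhibitor of the cell cycle, rose from 16.5 to 17.6 CPM in controls to 26.3 and 27.6 CPM (0.64).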
